A study of Mus musculus with 6 samples.

Results

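Sterol sensing, uptake and efflux in mouse liver was followed through 8 genes: Srebf2, Scap, Insig1, Insig2, Stard4, Scarb1, Abca1 and Abcg1. They are 8 of the 18193 genes named on the arrays, and were measured by all probe sets that the platform annotation assigned to exactly 1 of these symbols, which gave 19 of 45037 probe sets. Of these, 15 lay on both array designs and 4 on the larger design of week 4 alone, and Insig1 was measured only there. The livers came from C57BL/6J mice, an inbred strain, on a high-fat diet or a control diet for 2, 4 or 10 weeks, so that each diet has a single array per time point. The study's design text abbreviates the high-fat diet as HFC without spelling the letters out, and the composition of both diets, cholesterol included, is not stated in the sources at hand. Neither the age and sex of the mice, nor whether an array held 1 mouse or several, is given there. No genotype or agent other than the diet is named, and the labels name no replicate within a week.

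Cells hold their cholesterol within narrow limits by a feedback loop in the endoplasmic reticulum. Scap, the sterol-sensing escort, carries the precursor of SREBP-2, the product of Srebf2, to the Golgi, where proteases release the transcription factor that raises genes of cholesterol synthesis and uptake. When sterol is plentiful, Insig1 and Insig2 hold Scap back. Insig1 is itself a target of SREBP, while a transcript of Insig2 in mouse liver is known to be lowered by insulin. Stard4, also an SREBP-2 target, carries cholesterol between membranes, and Scarb1 encodes SR-BI, the receptor through which hepatocytes take up cholesteryl ester from HDL. Abca1 and Abcg1 export cholesterol to lipid-poor apolipoprotein A-I and to HDL, and both are targets of the oxysterol-sensing liver X receptors.

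Promoter sequence bears on this loop because its known switches are short motifs. RefSeq windows for build GRCm38.p6 were matched by symbol for 5 of the 8 genes, and the 250 bases before a start are shown for 4 of them, on the strand of the gene. Capitals mark matches, on either strand, to TCACNCCA, a core like that of the sterol regulatory element, to CCAAT, the NF-Y box, to CACGTG, the E-box, and to a loose form of DR4, the repeat that liver X receptors bind, in which GGTNA recurs after a gap of 5 bases. These motifs were chosen with the sequences in view.
Srebf2, chr15:82147019-82147268, plus strand: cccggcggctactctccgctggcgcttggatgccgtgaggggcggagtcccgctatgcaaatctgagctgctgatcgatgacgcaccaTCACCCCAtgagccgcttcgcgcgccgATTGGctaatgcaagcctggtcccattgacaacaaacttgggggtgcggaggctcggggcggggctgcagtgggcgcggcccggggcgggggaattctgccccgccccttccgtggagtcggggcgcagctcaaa
Insig1, chr5:28071162-28071411, plus strand: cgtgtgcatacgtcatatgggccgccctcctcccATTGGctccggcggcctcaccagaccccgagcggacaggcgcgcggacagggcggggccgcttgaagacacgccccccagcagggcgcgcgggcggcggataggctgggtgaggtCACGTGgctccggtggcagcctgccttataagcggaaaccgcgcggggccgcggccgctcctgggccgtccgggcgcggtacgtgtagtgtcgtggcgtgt
Insig2, most upstream of its 3 windows, chr1:121332590-121332839, minus strand: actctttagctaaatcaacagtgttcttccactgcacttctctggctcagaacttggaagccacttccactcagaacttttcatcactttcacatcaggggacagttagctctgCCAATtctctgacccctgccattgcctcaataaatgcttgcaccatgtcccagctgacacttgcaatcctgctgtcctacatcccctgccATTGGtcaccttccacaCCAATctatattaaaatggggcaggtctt
Abca1, chr4:53159896-53160145, minus strand: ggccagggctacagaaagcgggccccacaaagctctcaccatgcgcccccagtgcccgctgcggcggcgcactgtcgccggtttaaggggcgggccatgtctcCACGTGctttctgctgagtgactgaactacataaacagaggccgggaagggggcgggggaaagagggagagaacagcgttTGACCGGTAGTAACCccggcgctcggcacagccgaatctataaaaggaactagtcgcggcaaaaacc

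The Srebf2 window held TCACCCCA, beginning 162 bases before the start, with an inverted CCAAT box beginning 135 bases before it. Among 32851 promoter windows of this length 3.67% held TCACNCCA and 33.8% held CCAAT. The Insig1 window held an inverted CCAAT box and 1 CACGTG, a motif found in 6.02% of windows. The Abca1 window held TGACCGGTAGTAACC, the DR4 form read on the other strand, beginning 67 bases before the start, and 0.621% of windows held such a repeat. The Insig2 window shown held 3 CCAAT boxes and neither TCACNCCA nor the DR4 form. Its other windows, not shown, held no match to any of these motifs. For Scap, also not shown, the window at chr9:110333038-110333287 held none. That at chr9:110333106-110333355 held 1 CACGTG alone. A match is a run of letters and no evidence of binding.

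Signals are given below in the units of the deposited intensities, after each array was centred on the same median. A signal at or under 155.3, the 40th percentile of all centred values, counts as the floor, and a difference with 1 side there is a bound. Levels are compared between diets within a week, and across time only between weeks 2 and 10, which share an array design. All 15 shared member probe sets were above the floor on at least 3 arrays and entered the test, 13 of them above it on all 6. Of the 4 on the larger design alone, Scap 1442885_at and Abcg1 1455221_at lay at the floor on both arrays of week 4. Suffixes in a probe set's name follow the manufacturer's naming, in which _a_at marks probes shared by transcripts of 1 gene and _x_at marks probes that may also bind other transcripts.

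Controls of RNA quality and cell type markers differed between the arrays. The 3'/5' signal ratio of beta-actin was 1.61 on the high-fat against 1.20 on the control array in week 2, 2.35 against 2.15 in week 4, and 1.17 against 1.73 in week 10. That of Gapdh was 0.814 to 1.01 on the high-fat and 0.783 to 0.906 on the control arrays. That of pyruvate carboxylase was 9.64 on the high-fat against 3.82 on the control array in week 2, 7.78 against 4.26 in week 4, and 2.39 against 4.01 in week 10. The hybridisation controls examined all had their highest deposited intensity on the week 10 control array. BioDn-3 had 19736 there, against 4271 to 7858 on the other 5, and CreX-3 had 49385, against 11693 to 32159. The r2-Ec-bioD-3 control had 21252.5, against 3822 to 13606, and r2-P1-cre-3 had 60895, against 20202 to 52275. Each week 10 difference rests in part on that array. The tissue carried hepatocyte markers, all 9 above the floor on all 6 arrays. Their summed signal was 202186 to 383651 on the high-fat and 303554 to 519291 on the control arrays. All 9 were lower with high-fat feeding in weeks 4 and 10, as were 45.8% and 47.8% of all tested probe sets. The 9 markers had median log2 differences of -0.82 and -0.48. With quantile normalization the hepatocyte medians of weeks 4 and 10 were 0.00 and -0.09, and after loess on brightness -0.14 and -0.22. All 14 macrophage and Kupffer cell markers were higher with high-fat feeding in week 10 (median 0.68), as were 50.5% of all tested probe sets. The sums of these markers were 23184 to 37275 on the high-fat and 17643 to 37180 on the control arrays. Sums over endothelial, bile duct and stellate markers were 10992 to 14648 on the high-fat and 7600 to 14950 on the control arrays. Of the 10 of these tested, 9 were higher and 1 lower with high-fat feeding in week 10, beside 50.5% and 47.8% of all tested probe sets. Their median was 0.43 in week 10, and -0.26 and 0.08 at weeks 2 and 4. The week 10 values of Lyve1, Lrat and Col1a1 are bounds. The bile duct markers Krt7 and Epcam were at the floor on all 6 arrays. The part of these shifts in the results below was not tested, and in whole tissue fewer cells of a type and less RNA per cell cannot be told apart. How far the marker shifts come from the scaling of the arrays was not tested either.

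**Figure D1:**
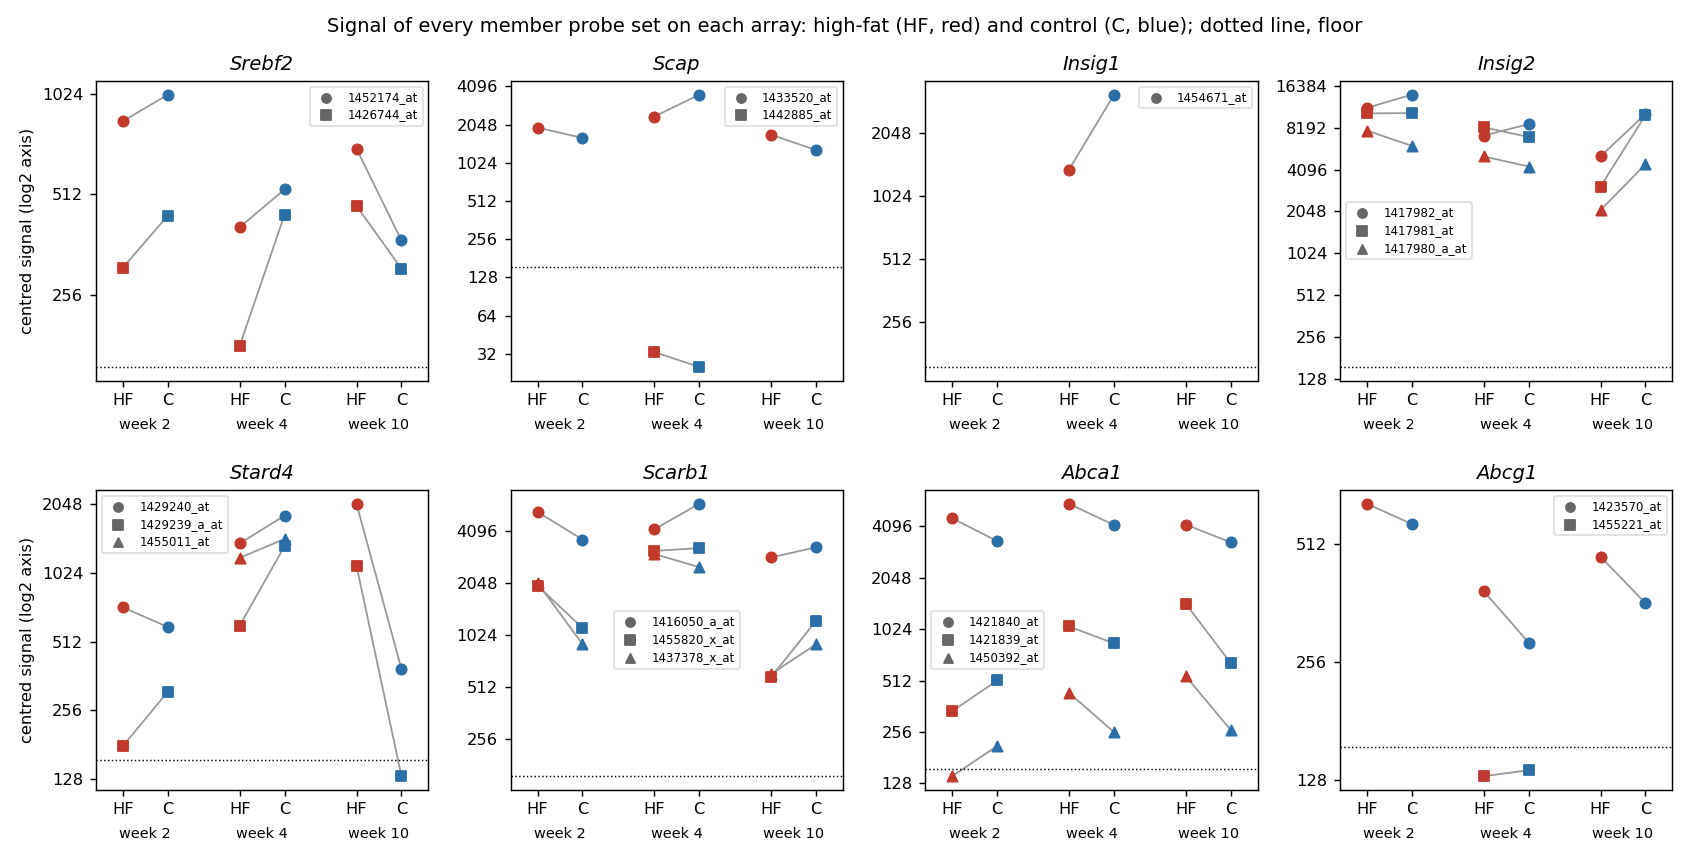
Centred signal (log2 axis) of each member probe set on each array, 1 panel per gene, with the high-fat array (HF, red) left of the control array (C, blue) at each week. Marker shapes stand for probe sets, grey lines join the 2 arrays of a week, and the dotted line is the floor at 155.3. Among the 4 arrays of weeks 2 and 10, the high-fat array of week 10 has the lowest signal of all 3 Insig2 probe sets and the highest of both Stard4 probe sets.

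The first comparison asked whether any member differed between the diets over the 3 weeks. None of the 15 shared probe sets passed the test (limma with week as a block, smallest adjusted p = 0.993), and none had an unadjusted p under 0.05. Over all 14533 probe sets tested, 0.0138% passed as higher and 0.00% as lower, and 4.03% had an unadjusted p under 0.05. The 2 that passed were those of Krt23 and Dbp. Error here starts from how far a diet difference varied from week to week, and the eBayes step of limma draws it toward the spread of all tested probe sets. The standard deviation over the 3 differences ran from 0.05 for Abca1 1421840_at to 2.20 on the log2 scale for Stard4 1429239_a_at. The standard errors used in the test were 0.21 and 0.62 for these, so the intervals below do not rest on a probe set's own spread alone. With 1 array per diet a single week has no test, so the values below are differences between arrays.

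Srebf2, the precursor gene of SREBP-2 (chr15:82147269-82205379 in GRCm38.p6, as are the positions below), was lower with high-fat feeding in weeks 2 and 4 and higher in week 10, on both of its probe sets. Srebf2 1452174_at had signals of 846 on the high-fat against 1016 on the control array in week 2, 407 against 529 in week 4, and 700.2 against 372 in week 10. Srebf2 1426744_at had 308 on the high-fat against 441 on the control array in week 2, 179.9 against 444 in week 4, and 472 against 306 in week 10. The log2 differences were therefore -0.26, -0.38 and 0.91 on the first and -0.52, -1.31 and 0.62 on the second. The difference of week 4 on Srebf2 1426744_at was -0.33 at the 60th percentile floor, which lies above the high-fat signal, and that of week 10 was 0.42 at that floor and 0.58 after loess, both under 1.5-fold. Over the weeks the mean log2 difference was 0.09 (95% interval -0.55 to 0.73) and -0.40 (-1.15 to 0.35).

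Scap, the sterol-sensing escort (chr9:110333288-110384949), had the same signs as Srebf2 at weeks 4 and 10 but not at week 2. Its probe set 1433520_at had signals of 1939 on the high-fat against 1607 on the control array in week 2, 2369 against 3524 in week 4, and 1704 against 1288 in week 10. These are log2 differences of 0.27, -0.57 and 0.40, none of them 1.5-fold, and the first was -0.40 with the values as deposited, in which the control array of week 2 is scaled higher. That scaling shifted the median of all probe sets at week 2 to -0.67. The mean over the weeks was 0.03 (95% interval -0.53 to 0.60).

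Insig1, the sterol-dependent anchor that SREBP itself induces (chr5:28071412-28078662), had a signal of 1373 on the high-fat and 3141 on the control array of week 4. It was 2.29-fold lower on the high-fat array (log2 difference -1.19, and -1.19 to -1.03 under the alternatives). Insig1 is not analysed here at weeks 2 and 10.

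Insig2, the second anchor (chr1:121304353-121332662), was lower on the high-fat array of week 10, where Srebf2 was higher. On all 3 probe sets that array was the lowest of the 4 arrays of weeks 2 and 10. Insig2 1417982_at had signals of 11413 on the high-fat against 14203 on the control array in week 2, 7209 against 8707 in week 4, and 5119 against 10274 in week 10. Insig2 1417981_at had 10413 on the high-fat against 10457 on the control array in week 2, 8266 against 7036 in week 4, and 3094 against 10129 in week 10. Insig2 1417980_a_at had 7828 on the high-fat against 6077 on the control array in week 2, 5096 against 4315 in week 4, and 2097 against 4474 in week 10. At week 10 it was thus 2.01-, 3.27- and 2.13-fold lower on the high-fat array, while at weeks 2 and 4 the 3 log2 differences ran from -0.32 to 0.37 and from -0.27 to 0.24. With the values as deposited the 0.37 of 1417980_a_at was -0.30, and the week 2 value of 1417981_at, near 0, was 0.038 with quantile normalization. The week 10 differences of -1.01, -1.71 and -1.09 ran from -1.71 to -0.87 over the alternative scalings and floors. The closest member to the test's threshold was Insig2 1417982_at, lower at all 3 weeks (0.03 in week 4 after loess) with a mean of -0.53 (95% interval -1.06 to 0.00, limma unadjusted p = 0.0506, adjusted p = 0.993). Without week 10 that mean was -0.29.

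Stard4, the cholesterol carrier (chr18:33199138-33213862), showed the opposite pattern at week 10 and the widest difference of the 8 genes. Stard4 1429240_at had signals of 723 on the high-fat against 593 on the control array in week 2, 1378 against 1825 in week 4, and 2054 against 389 in week 10. Stard4 1429239_a_at had 178.4 on the high-fat against 309 on the control array in week 2, 601 against 1343 in week 4, and in week 10 1100 against a control signal of 131.7, which is at the floor. At week 10 it was 5.29-fold higher on the first and at least 7.08-fold higher on the second, a log2 bound of 2.82 that was 1.64 with the 60th percentile floor. At week 4 it was lower on all 3 probe sets, with log2 differences of -0.40, -1.16 and, on 1455011_at of the larger design, -0.27. At week 2 the 2 probe sets had 0.29 and -0.79. With the values as deposited both were lower, with -0.38 and -1.28, and at the 60th percentile floor both signals of 1429239_a_at were at the floor. Among the 4 arrays of weeks 2 and 10, the week 10 control array had the lowest signal on both and the week 10 high-fat array the highest. The mean log2 difference over the weeks was 0.76 (95% interval -0.23 to 1.75) on the first and 0.29 (-1.10 to 1.68) on the second.

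**Figure D2:**
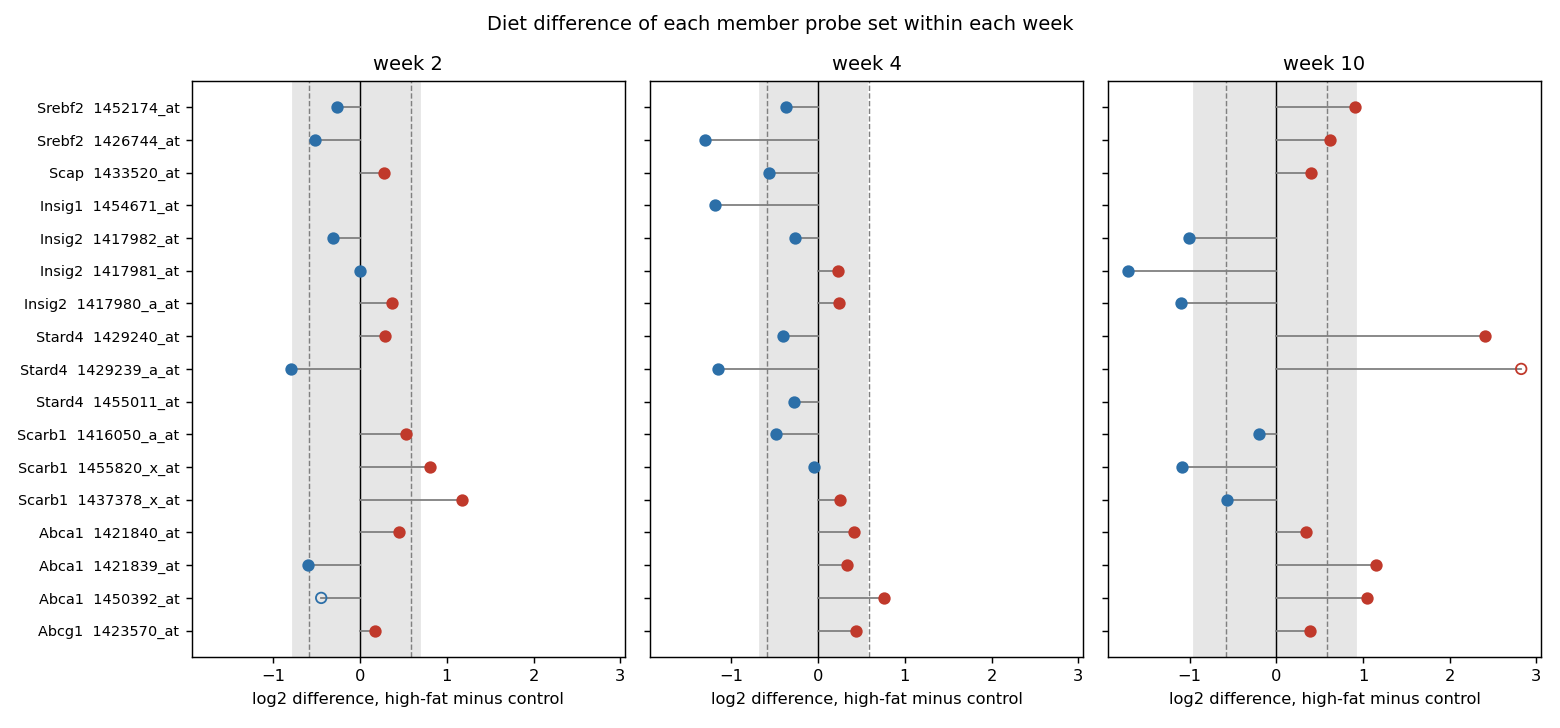
Log2 difference, high-fat minus control, of the 17 member probe sets above the floor at week 4, in 1 panel per week. Red points are higher and blue points lower on the high-fat array, open points are bounds, dashed lines mark 1.5-fold, and the grey band spans the 5th to 95th percentile of all tested probe sets. Stard4 reaches 2.40 and at least 2.82 at week 10, where the 3 Insig2 probe sets lie between -1.71 and -1.01.

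Scarb1, the HDL receptor (chr5:125277087-125341094), was higher with high-fat feeding in week 2 and lower in week 10, on all 3 probe sets. Scarb1 1416050_a_at had signals of 5266 on the high-fat against 3641 on the control array in week 2, 4175 against 5861 in week 4, and 2869 against 3286 in week 10. Scarb1 1455820_x_at had 1966 on the high-fat against 1121 on the control array in week 2, 3129 against 3246 in week 4, and 582 against 1234 in week 10. Scarb1 1437378_x_at had 2045 on the high-fat against 902 on the control array in week 2, 3003 against 2519 in week 4, and 606 against 901 in week 10. The 3 log2 differences were 0.53, 0.81 and 1.18 in week 2, then -0.49, -0.05 and 0.25, and in week 10 -0.20, -1.08 and -0.57. The wider differences came from the 2 sets marked _x_at, and with the values as deposited the week 2 differences were -0.14, 0.14 and 0.51, none of them 1.5-fold higher. The week 4 value of 1455820_x_at, near 0, was 0.055 after loess. Their means over the weeks were -0.05 (95% interval -0.62 to 0.52), -0.11 (-0.85 to 0.63) and 0.29 (-0.42 to 0.99).

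Abca1, the exporter to lipid-poor apolipoprotein A-I (chr4:53030789-53159988), was higher with high-fat feeding in weeks 4 and 10, on all 3 probe sets. Abca1 1421840_at had signals of 4577 on the high-fat against 3364 on the control array in week 2, 5560 against 4179 in week 4, and 4201 against 3305 in week 10. Its log2 differences of 0.44, 0.41 and 0.35 varied least of all members between weeks (standard deviation 0.05), with a mean of 0.40 (95% interval -0.07 to 0.87, limma adjusted p = 0.993). With the values as deposited the week 2 difference was -0.22 and the mean 0.21.

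The other Abca1 probe sets varied more. Abca1 1421839_at had 339 on the high-fat against 513 on the control array in week 2, 1063 against 846 in week 4, and 1442 against 648 in week 10. Abca1 1450392_at had 141.1, at the floor, on the high-fat against 212 on the control array in week 2, 434 against 256 in week 4, and 543 against 263 in week 10. At week 10 these were 2.23- and 2.07-fold higher on the high-fat array, against 1.27-fold on 1421840_at, and at week 4 1450392_at was 1.70-fold higher. That week 4 difference, 0.76 on the log2 scale, was 0.30 at the 60th percentile floor. At week 2 both were lower, by 1.51-fold and by at least 1.36-fold, and the first, -0.60 on the log2 scale, was under 1.5-fold with quantile normalization (-0.58), the 60th percentile floor (-0.54) and loess (-0.53). Their means were 0.30 (95% interval -0.41 to 1.0) and 0.45 (-0.21 to 1.12), and the second was 0.16 without week 10, 0.91 without week 2 and 0.30 without week 4.

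Abcg1, the exporter to HDL (chr17:31057694-31117984), was higher with high-fat feeding every week. Abcg1 1423570_at had signals of 650.3 on the high-fat against 578 on the control array in week 2, 389 against 287 in week 4, and 476 against 363 in week 10. The log2 differences were 0.17, 0.44 and 0.39, none 1.5-fold, with a mean of 0.33 (95% interval -0.15 to 0.81). With the values as deposited that of week 2 was -0.50 and the mean 0.15. Of the 15 probe sets, this one and Abca1 1421840_at were higher at all 3 weeks, as were 8.24% of all tested, and 1, Insig2 1417982_at, was lower at all 3, against 11.7%.

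Counted together, the members at least 1.5-fold different were few at weeks 2 and 4 and more at week 10. At week 2, 2 of 15 were higher (7.38% of all tested probe sets) and 2 lower (10.2%), and at week 4, 1 was higher (4.46%) and 2 lower (7.27%). On the larger design at week 4, 1 of 17 was higher (6.63%) and 3 were lower (8.85%), among them Insig1. At week 10, 6 of 15 probe sets, of Srebf2, Stard4 and Abca1, were higher (14.0%), and 4, of Insig2 and Scarb1, were lower (13.6%). A single probe set of Srebf2 and 1 of Stard4 were at least 1.5-fold lower in week 4 and at least 1.5-fold higher in week 10, as were 1.14% of all tested. Probe sets of 1 gene measure the same gene, so the 10 of week 10 stand for 5 of 7 genes. On the brightest probe sets of Scarb1 and Abca1 the week 10 log2 differences were -0.20 and 0.35, both under 1.5-fold. The median log2 difference of the 15 was 0.17, -0.05 and 0.39 at weeks 2, 4 and 10, beside -0.04, 0.00 and 0.01 over all tested.

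Levels were then set across time within each diet between weeks 2 and 10. These share arrays with the diet differences and are no independent evidence. On the high-fat diet all 3 Insig2 probe sets were lower at week 10 than at week 2, with log2 differences of -1.16, -1.75 and -1.90, beside -0.47, -0.05 and -0.44 on the control diet. Scarb1 had -0.88, -1.76 and -1.75 on the high-fat diet, beside -0.15, 0.14 and 0.00 on the control diet. Stard4 went the other way, with 1.51 and 2.62 on the high-fat diet and -0.61 and, as a bound, -0.99 on the control diet, and so did Abca1 1421839_at and 1450392_at, with 2.09 and at least 1.81 on the high-fat diet and 0.34 and 0.31 on the control diet. Abca1 1421840_at stayed within -0.12 on the high-fat and -0.03 on the control diet. Srebf2 had -0.27 and 0.61 on the high-fat diet, beside -1.45 and -0.53 on the control diet.

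**Figure D3:**
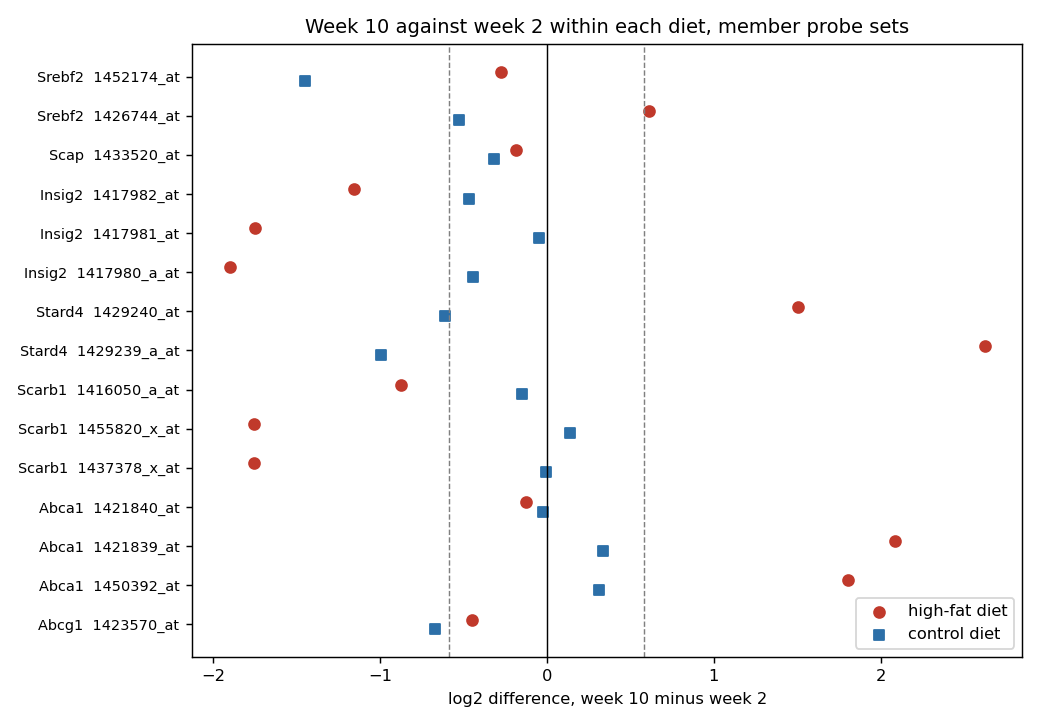
Log2 difference, week 10 minus week 2, of the 15 shared member probe sets on the high-fat diet (red circles) and the control diet (blue squares), from 1 array each, with dashed lines at 1.5-fold. Insig2 and Scarb1 lie left of 0 and Stard4 right of it on the high-fat diet.

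At least 1.5-fold higher at week 10 than at week 2 were 5 of 15 members on the high-fat diet (20.3% of all tested) and 0 on the control diet (12.2%). At least 1.5-fold lower were 6 on the high-fat diet (14.6%) and 4 on the control diet (10.4%). On weeks 2 and 10 together, both high-fat arrays lay above both control arrays for 3 of 15 members, 1 each of Scap, Stard4 and Abca1, as for 12.3% of all tested, and below for 0, against 14.2%.

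The related genes gave the setting for these values, each by its brightest shared probe set. Of 17 genes of sterol synthesis tested, all were lower with high-fat feeding in week 4 (45.8% of all tested probe sets). At least 1.5-fold lower were 16 (7.27% of all tested), and the median log2 difference of the list was -1.57. In week 10, 11 were higher (50.5% of all tested), 7 at least 1.5-fold (14.0% of all tested, list median 0.41). Another 5 were lower (47.8% of all tested), 2 of them at least 1.5-fold (13.6% of all tested), Cyp51 with -1.23 and Tm7sf2 with -0.66. At week 2, 14 were lower (54.0% of all tested), 6 of them at least 1.5-fold (10.2% of all tested, list median -0.36). Named members with the widest mean were the demethylase Cyp51 (-1.14), the isoprenoid enzyme Idi1 (-0.75), Hsd17b7 (-0.69) and the epoxidase Sqle (-0.67), none passing the test (limma adjusted p = 0.993 each).

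The list of SREBP processing and degradation genes, which also holds Srebf1 and Tmem97, had median log2 differences of 0.00, 0.08 and 0.25 over 6 genes. The widest mean was that of Srebf1, the lipogenic paralog of Srebf2, with 0.28, 0.31 and 1.08 at the 3 weeks. Pgrmc1 had a mean of -0.36, Tmem97 -0.18 and Erlin1 0.17. Of 8 genes of uptake, lysosomal release and storage, none was 1.5-fold different at weeks 2 and 4, and 1 was higher and 1 lower at week 10 (14.0% and 13.6% of all tested). The higher one was Pdzk1, which encodes the adaptor that holds SR-BI at the hepatocyte surface, with 0.02, 0.32 and 0.88 at the 3 weeks. Lipa, the lysosomal lipase, had a mean of 0.24, Stard5 -0.17 and Mylip -0.10.

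Among 10 oxysterol receptor, efflux partner and HDL genes the exporter subunit Abcg5 was higher with high-fat feeding every week, with 0.52, 0.43 and 0.73, the first of these smaller in size than the -0.67 by which the deposited scaling shifts week 2. Nr1h3, which encodes LXR alpha, had -0.01, -0.43 and -0.35. Cyp7a1, which starts bile acid synthesis, had a mean of -0.86, and the HDL and remnant proteins Apoa1 and Apoe had -0.51 and -0.57. The medians of the list were 0.08, -0.53 and -0.42. Under the alternatives that of week 2 ran from -0.59 to 0.13, on both sides of 0. That of week 4 ran from -0.53 to -0.13 and that of week 10 from -0.42 to -0.08. No gene of the 4 lists passed the test. An unadjusted p under 0.05 (limma) was found for 3 of 17 genes of sterol synthesis and for 1 of 6, Srebf1, of the SREBP list. It was also found for 0 of 8 of uptake and 3 of 10 of this list, beside 4.03% of all tested probe sets. Apoa1 is also among the hepatocyte markers, and some genes of the lists were not analysed here.

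**Figure D4:**
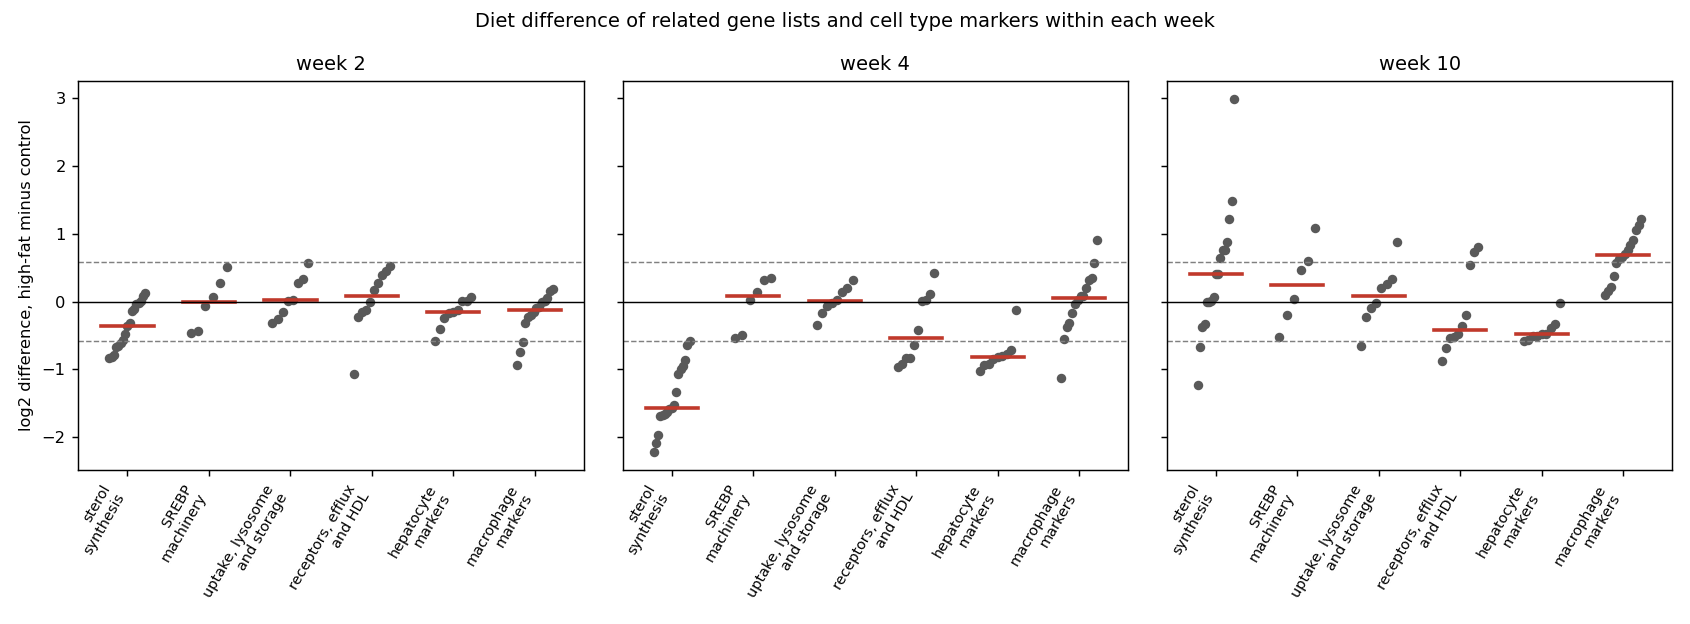
Log2 difference, high-fat minus control, of each tested gene of the 4 related lists and of hepatocyte and macrophage markers, in 1 panel per week, with red bars at medians and dashed lines at 1.5-fold. The sterol synthesis median is -1.57 at week 4 and 0.41 at week 10.

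The genes most alike in their 3 within-week differences were found for the brightest probe set of each member that was 1.5-fold different in any week, by Euclidean distance over all tested probe sets with 1 symbol. For Srebf2 they were Ptprcap, Masp1 and Seh1l (distances of 0.01, 0.02 and 0.07 on the log2 scale), and for Insig2 Pttg1ip, Dlst and Slc25a22 (0.10, 0.11 and 0.12). For Stard4 they were Srxn1, Trpm7 and Mknk2 (0.45, 0.50 and 0.51). With only 3 differences and many probe sets, such likeness is a description.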

How the data were processed

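The authors deposited 1 linear intensity per probe set of Affymetrix mouse arrays. From the values, arrays had been scaled: with 2% trimmed off both ends their means were 500.0 to 500.2, but 800.3 for the control array of week 2. The sources used here do not name the program that made the values. Per the labels' protocols, total RNA of frozen liver was labelled with biotin by in vitro transcription. From the deposited intensities, log2 values were centred per array, using the median of 9922 probe sets that exceed the floor throughout, and values under the floor (7.28 on the log2 scale) were raised to it. Control probe sets, 64 of them, were left out, leaving 22626 shared probe sets, of which 14533 above the floor on at least 3 arrays were tested. The diet test was limma 3.58.1 (R 4.3.3) with lmFit, eBayes, a week block and Benjamini-Hochberg adjustment at 0.05, and was tested on simulated data. Those had independent noise and a diet shift equal in all weeks, so they do not cover a difference that varies by week. At week 4 a probe set of the larger design was counted if its mean lay above the floor. Members and lists were chosen with earlier results of these data known. Genes of related lists were named by a rule, up to 4 per list by largest mean difference, and Nr1h3 was chosen after its values were seen. Alternatives tried were quantile normalization, the deposited scaling, a 20th or a 60th percentile floor, no filter, 1 probe set per gene, loess on brightness, no week block, eBayes with trend and robust, and leaving out each week; for the list medians these were chosen after seeing the data. The number of arrays limits the precision.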

Additional observations from a re-analysis of the deposited data

Results flagged for a closer look

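For 4 probe sets the high-fat minus control difference (log2) passed 1.5-fold upward in 1 week and downward in another. Each week has 1 array per diet, so the difference between weeks was not tested. Srebf2 1426744_at had -1.31 at week 4 and 0.62 at week 10, and fell short of 1.5-fold in week 10 after loess (0.58) and in both weeks at the 60th percentile floor (-0.33 and 0.42). Stard4 1429239_a_at had -0.79 at week 2, -1.16 at week 4 and at least 2.82 at week 10. At the 60th percentile floor its week 2 signals were both at the floor, and weeks 4 and 10 had -1.16 and 1.64. Scarb1 1455820_x_at had 0.81 at week 2 and -1.08 at week 10, and with the values as deposited week 2 had 0.14, under 1.5-fold. Abca1 1421839_at had -0.60 at week 2 and 1.15 at week 10, and week 2 was under 1.5-fold with quantile normalization (-0.58), the 60th percentile floor (-0.54) and loess (-0.53). Among all tested probe sets, 1.14% were at least 1.5-fold lower at week 4 and at least 1.5-fold higher at week 10. That share covers only the pattern of Srebf2 1426744_at and Stard4 1429239_a_at. No share was computed for the turns of Scarb1 1455820_x_at and Abca1 1421839_at between weeks 2 and 10. The count of 4 therefore cannot be set against all probe sets.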

How the results depend on the processing

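No member passed the test under any alternative run, and 155 of 171 alternative values of the mean difference kept their sign. Leaving out single weeks moved it between these values, on both sides of 0: Srebf2 1452174_at -0.32 to 0.32, Srebf2 1426744_at -0.91 to 0.052, Scap -0.15 to 0.34, Insig2 1417981_at -0.86 to 0.11, Insig2 1417980_a_at -0.43 to 0.30, Stard4 1429240_at -0.059 to 1.34, Stard4 1429239_a_at -0.98 to 1.02, Scarb1 1416050_a_at -0.34 to 0.17, Scarb1 1455820_x_at -0.57 to 0.38, Scarb1 1437378_x_at -0.16 to 0.72 and Abca1 1421839_at -0.13 to 0.74. On 1 side of 0 it left Insig2 1417982_at between -0.66 and -0.29 and Abca1 1450392_at between 0.16 and 0.91. Abca1 1421840_at (0.38 to 0.43) and Abcg1 1423570_at (0.28 to 0.42) also stayed above 0. Among the probe sets on both sides of 0, the sign turned without week 10 for 9, the exceptions being Srebf2 1426744_at and Scarb1 1437378_x_at. The values as deposited turned Srebf2 1452174_at (-0.098) and Scap (-0.15), and loess on brightness Scarb1 1416050_a_at (0.020). Without a change of sign, the values as deposited gave 0.027 for Stard4 1429239_a_at and 0.099 for Scarb1 1437378_x_at, and the 60th percentile floor gave -0.079 for Srebf2 1426744_at. The cause was not tested. Over all probe sets the test called 2, against 10 with the values as deposited, 1 with 1 probe set per gene and with trend and robust, 0 with quantile normalization, either other floor, no filter, loess or no week block, and 0 to 9 when a week was left out. For members at least 1.5-fold different, week 2 had 0 higher and 7 lower under the deposited scaling. That scaling put the week 2 median of all tested probe sets at -0.67, itself past 1.5-fold lower, so the 7 do not set the members apart. Shares of all probe sets past 1.5-fold are not given for the alternatives, so their counts have none beside them. Quantile normalization and loess each gave 1 lower at week 2, and loess gave 2 higher at week 4. The 60th percentile floor gave 0 lower at week 2, and at week 4 0 higher and 1 lower. With 1 probe set per gene, 7 were counted, of which 0 and 0 were higher and lower at weeks 2 and 4, and 2 and 1 at week 10. Other counts were within 1.5 times. The labels give no replicate within a diet and week, so neither the members nor the weeks that differ most can be checked against a repeat.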
